A study of Mus musculus with 21 samples.

Results

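The effect of transforming growth factor beta 1 (TGF-b1) on newly made RNA was compared with its effect on total RNA in NMuMG cells, an established line of mouse mammary gland epithelial cells. All 12 NMuMG arrays of the 21 arrays in the series were used, in 4 groups of 3, and 18193 genes were described. The control groups received 200 µM 4-thiouridine (4sU) for 2 h, and the TGF-b1 groups received the same 4sU together with 5 ng/ml TGF-b1 for 2 h, so that every group carried the label. In each condition 1 group held total RNA and the other the RNA enriched for 4sU. The labels name no transgene or knockdown in these cells. The other 9 arrays, from another cell line with siRNA, were not used here. The measure for each gene was the TGF-b1 minus control difference in newly made RNA (log2) minus the same difference in total RNA (log2), called the interaction below, and a gene was called at an adjusted p under 0.05 over all 18193 genes.

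4sU is a uridine analogue that living cells build into RNA as they transcribe, and its sulphur lets the labelled RNA be pulled out. The enriched fraction therefore holds the transcripts made during labelling, whereas total RNA also holds those that were present before TGF-b1 was added. TGF-b1 binds a pair of receptor kinases that phosphorylate SMAD proteins, which enter the nucleus and turn genes on or off. In mammary epithelium it is best known for arresting growth and for starting the epithelial-mesenchymal transition, in which cells lose junctions and gain a motile, fibroblast-like form.

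A promoter window, from 250 bases before to 50 bases after the transcription start, was available for 11 of the 12 genes called in the interaction, from RefSeq on GRCm38.p6. The windows of 5 of them are shown because they stand for each sort of gene called (an enzyme, a chemokine, a hypoxia regulator, a membrane protein and a gene that rose) and hold a match to 1 of 6 short motifs searched on both strands, with the match in capitals and the sequence running 5′ to 3′ along the gene. The windows lie at chr5:137921570-137921869, minus strand (Cyp3a13), chr1:83116516-83116815, plus strand (Ccl20), chr12:54203825-54204124, minus strand (Egln3), chr10:115817034-115817333, plus strand (Tspan8) and chr13:60936576-60936875, minus strand (Ctla2a).
Cyp3a13: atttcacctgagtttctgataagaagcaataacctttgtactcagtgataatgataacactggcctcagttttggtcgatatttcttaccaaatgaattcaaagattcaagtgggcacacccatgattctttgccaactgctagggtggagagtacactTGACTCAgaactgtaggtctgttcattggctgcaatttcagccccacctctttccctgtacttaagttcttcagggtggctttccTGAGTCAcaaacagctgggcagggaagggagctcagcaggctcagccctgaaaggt
Ccl20: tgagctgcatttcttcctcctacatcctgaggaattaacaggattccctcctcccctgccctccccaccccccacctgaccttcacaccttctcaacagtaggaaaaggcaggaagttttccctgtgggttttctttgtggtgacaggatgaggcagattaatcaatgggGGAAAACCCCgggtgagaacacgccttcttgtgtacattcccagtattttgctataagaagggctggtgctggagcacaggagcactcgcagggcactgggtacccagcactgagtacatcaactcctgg
Egln3: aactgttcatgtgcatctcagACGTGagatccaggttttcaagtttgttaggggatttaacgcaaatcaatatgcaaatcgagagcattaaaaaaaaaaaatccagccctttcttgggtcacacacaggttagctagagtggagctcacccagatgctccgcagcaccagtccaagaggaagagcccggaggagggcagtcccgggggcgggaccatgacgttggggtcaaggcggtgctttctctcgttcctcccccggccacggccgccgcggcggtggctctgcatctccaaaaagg
Tspan8: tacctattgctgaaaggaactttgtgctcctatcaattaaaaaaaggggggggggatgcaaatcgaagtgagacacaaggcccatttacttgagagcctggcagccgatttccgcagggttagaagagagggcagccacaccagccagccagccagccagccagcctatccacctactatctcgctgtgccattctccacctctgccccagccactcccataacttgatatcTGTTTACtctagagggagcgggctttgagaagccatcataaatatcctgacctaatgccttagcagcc
Ctla2a: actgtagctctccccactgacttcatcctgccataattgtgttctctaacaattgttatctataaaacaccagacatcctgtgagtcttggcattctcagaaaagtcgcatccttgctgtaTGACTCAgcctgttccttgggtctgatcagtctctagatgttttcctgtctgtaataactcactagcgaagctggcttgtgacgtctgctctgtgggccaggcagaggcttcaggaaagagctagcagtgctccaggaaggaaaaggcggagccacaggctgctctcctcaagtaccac

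The AP-1 letters TGANTCA were found in 7.81% of 32851 promoter windows of this length, and among the called genes in Cyp3a13, where they start 91 and 6 bases before the transcription start, in Ctla2a at 129 bases before it and in Aldh1a1 at 57. The NF-kB motif (GGG, then 2 bases of any kind, then TTTCC) was found in 1.63% of windows and in Ccl20, 80 bases before the start on the opposite strand. The hypoxia response core ACGTG was found in 19.6% of windows and in Egln3, 229 bases before the start. The forkhead letters TGTTTAC were found in 3.65% of windows, in Tspan8 at 18 bases before the start and in Il33 at 162. The SMAD palindrome GTCTAGAC (0.213% of windows) and the HNF4 letters CAAAGTCCA (0.475%) were not in any of the 11 windows. The windows of 3110009F21Rik, Akr1c14, Akr1c19 and Epb41l4b held no match. For Aldh1a1, Ctla2a and Il33, which have 2 starts listed, the matches are those at the first start. No motif searched overlaps another in the windows shown, and a match is only a run of letters.

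TGF-b1 changed newly made RNA more than total RNA for 12 genes, 0.066% of those tested, and in none of the 12 was the total RNA change the larger. For 10 of them the interaction was below 0 (0.055% of genes), since each fell more in newly made RNA: the pantetheinase gene Vnn1, the enzyme genes Cyp3a13, Akr1c14, Akr1c19 and Aldh1a1, the chemokine gene Ccl20, the cytokine gene Il33, the prolyl hydroxylase gene Egln3, the tetraspanin gene Tspan8 and the unnamed transcript 3110009F21Rik. For Ctla2a and Epb41l4b it was above 0 (0.011% of genes), since each rose more in newly made RNA. All 12 were called in newly made RNA, where 6.13% of all genes were called, and 7 of the 12 in total RNA, where 2.48% were. At an unadjusted p under 0.05 the interaction took 532 genes (2.92%), 268 above 0 (1.47%) and 264 below (1.45%). An unadjusted p under 0.01 was met by 136 genes (0.748%). Both are fewer than these cuts would pass if no gene differed and the error in the fit were right. Neither count thus shows an excess of differences, and neither shows that there is none. This fit has no block, so spread shared by arrays of the same replicate number stays in its error. Whether that lowered the counts was not tested.

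Within each kind of RNA, arrays with the same replicate number tended to deviate together. In newly made RNA, however, a pair with different numbers correlated as much (0.347) as the lowest same-number pair (0.338). With the number as a block within each kind, a choice made on these same arrays, limma called 86 genes (0.473%), 34 above 0 and 52 below, in place of 12. All 12 were among the 86, with adjusted p between 2.08e-06 and 0.00105. The change was larger in newly made RNA for 86 of these 86 genes, for 122 of the 136 with an unadjusted p under 0.01, for 412 of the 532 under 0.05, and for 56.6% of all 18193 genes.

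**Figure D1:**
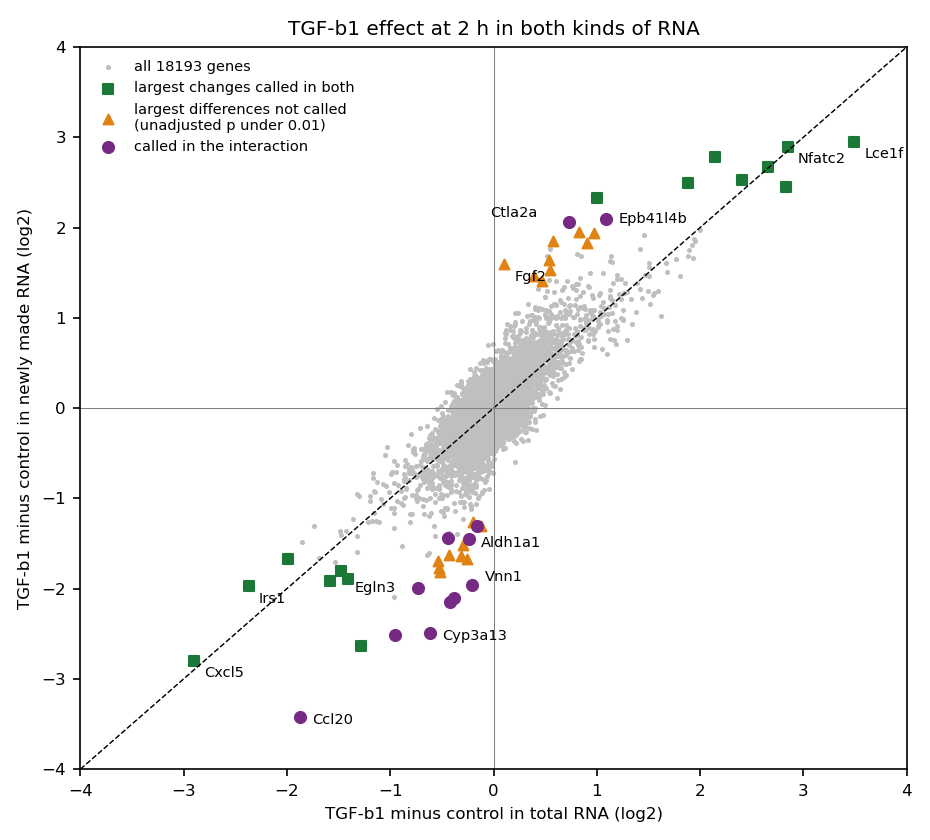
TGF-b1 minus control difference (log2) in total RNA on the x axis against that in newly made RNA on the y axis, 1 point per gene (18193 genes, means of 3 arrays per group), with the line of equal effects dashed. The 12 called genes (circles) lie above the line where they rose and below it where they fell, and Cxcl5, Irs1, Nfatc2 and Lce1f (squares) lie near it.

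Vnn1 encodes the pantetheinase that splits pantetheine into vitamin B5 and cysteamine. Vnn1 read 11.001, 11.33 and 11.29 (log2) in newly made RNA of control cells and 9.30, 9.26 and 9.17 with TGF-b1, and in total RNA 12.36, 12.20 and 12.40 without and 12.22, 12.11 and 12.02 with TGF-b1. Newly made RNA was lower on every TGF-b1 array than on every control array, and in total RNA the ranges of the groups overlapped only between 12.20 and 12.22. Vnn1 fell by 1.96 ± 0.12 (log2, SE) in newly made RNA, a 3.89-fold drop, and had -0.21 ± 0.12 in total RNA, which was not called (limma adjusted p = 0.678). The interaction was -1.75 ± 0.17 (SE, limma adjusted p = 0.000274). In a bulk sample fewer cells of a type and less RNA per cell cannot be told apart, for this and every other gene.

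Cyp3a13 encodes a cytochrome P450 monooxygenase that oxidises steroids and foreign compounds. Cyp3a13 read 7.59, 7.49 and 7.72 (log2) in newly made RNA of control cells and 4.89, 5.20 and 5.21 with TGF-b1, and in total RNA 7.43, 7.44 and 7.37 without and 6.97, 6.87 and 6.54 with TGF-b1. Control and TGF-b1 arrays did not overlap in either kind of RNA, and the control arrays of both kinds lay within 7.37 to 7.72. The fall was 5.65-fold in newly made RNA, -2.50 ± 0.13 (log2, SE), and 1.54-fold in total RNA, -0.62 ± 0.13, both called. The interaction of -1.88 ± 0.19 (SE, limma adjusted p = 0.000274) was the largest in size of all 12. Its newly made TGF-b1 values, from 4.89 to 5.21, lie low in a table whose lowest value is 2.34 (log2).

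Akr1c14 and Akr1c19 encode aldo-keto reductases, enzymes that reduce steroid and other carbonyls, and lie on chromosome 13. Akr1c14 read 7.33, 7.53 and 7.87 (log2) in newly made RNA of control cells and 5.38, 5.27 and 5.63 with TGF-b1, and in total RNA 8.72, 8.33 and 8.18 without and 8.30, 8.11 and 7.58 with TGF-b1. Akr1c19 read 7.46, 7.97 and 7.94 (log2) in newly made RNA of control cells and 5.45, 6.10 and 5.49 with TGF-b1, and in total RNA 9.17, 9.38 and 9.66 without and 8.96, 9.17 and 8.94 with TGF-b1. In both genes the newly made TGF-b1 arrays all lay more than 1 log2 unit under the newly made control arrays, while in total RNA the groups overlapped for Akr1c14 and met at 9.17 for Akr1c19. The interaction was -1.73 ± 0.27 (SE, limma adjusted p = 0.0171) for Akr1c14 and -1.73 ± 0.26 (SE, limma adjusted p = 0.0171) for Akr1c19, and neither was called in total RNA (limma adjusted p = 0.494 and 0.547) without the block. With it the total RNA change of -0.42 (log2) was called for Akr1c14 (limma adjusted p = 0.0272) and not for Akr1c19 (0.0917). With TGF-b1, the newly made values of both genes were low. All but the 6.10 of Akr1c19 lay under the medians of those arrays, 5.93 to 5.97 (log2). The genes of this family are close in sequence, and whether a probe set reads a relative too was not tested.

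Aldh1a1 encodes the dehydrogenase that turns retinaldehyde into retinoic acid. Aldh1a1 read 9.54, 9.96 and 9.78 (log2) in newly made RNA of control cells and 8.15, 8.51 and 8.26 with TGF-b1, and in total RNA 11.99, 11.98 and 12.10 without and 11.83, 11.86 and 11.66 with TGF-b1. Newly made RNA separated the groups by over 1 log2 unit, and total RNA, where TGF-b1 arrays read 11.66 to 11.86 and control arrays 11.98 to 12.10, separated them only narrowly. The change was -1.45 ± 0.13 (log2, SE) in newly made and -0.24 ± 0.13 in total RNA, which was not called (limma adjusted p = 0.639), and the interaction was -1.21 ± 0.18 (SE, limma adjusted p = 0.0171).

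Ccl20 encodes the chemokine that draws Ccr6-bearing dendritic cells and lymphocytes to epithelia. Ccl20 read 11.14, 10.84 and 10.91 (log2) in newly made RNA of control cells and 7.72, 7.402 and 7.48 with TGF-b1, and in total RNA 10.48, 10.35 and 10.73 without and 8.92, 8.57 and 8.45 with TGF-b1. Every TGF-b1 array was below every control array in both kinds of RNA. Ccl20 had the largest fall in newly made RNA of the 12, 10.8-fold, -3.43 ± 0.15 (log2, SE), and also a called fall of 3.67-fold in total RNA, -1.88 ± 0.15. The effect was thus already visible in total RNA and was larger still in newly made RNA, with an interaction of -1.55 ± 0.21 (SE, limma adjusted p = 0.00756). Il33 encodes an interleukin 1 family cytokine that epithelial nuclei store and release on damage. Il33 read 9.52, 9.43 and 9.56 (log2) in newly made RNA of control cells and 7.94, 8.07 and 8.17 with TGF-b1, and in total RNA 10.92, 10.96 and 11.04 without and 10.55, 10.56 and 10.47 with TGF-b1. No TGF-b1 array overlapped a control array in either kind of RNA. Il33 fell by 1.44 ± 0.11 (log2, SE) in newly made and by 0.44 ± 0.11 in total RNA, and the interaction was -1.002 ± 0.15 (SE, limma adjusted p = 0.0171).

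Egln3 encodes a prolyl hydroxylase that marks hypoxia-inducible factors for destruction and is itself a hypoxia target. Egln3 read 9.41, 9.53 and 9.47 (log2) in newly made RNA of control cells and 7.51, 7.62 and 7.29 with TGF-b1, and in total RNA 9.89, 9.67 and 9.98 without and 9.17, 9.14 and 9.02 with TGF-b1. The groups did not overlap in either kind of RNA. The fall was 3.99-fold in newly made RNA and 1.67-fold in total RNA, -1.997 ± 0.12 and -0.74 ± 0.12 (log2, SE), with an interaction of -1.26 ± 0.17 (SE, limma adjusted p = 0.00756). Tspan8 encodes a membrane tetraspanin of gut-type and other glandular epithelia. Tspan8 read 12.13, 12.19 and 12.18 (log2) in newly made RNA of control cells and 11.04, 10.77 and 10.78 with TGF-b1, and in total RNA 12.99, 12.69 and 13.03 without and 12.85, 12.79 and 12.58 with TGF-b1. Newly made RNA was lower by at least 1 log2 unit on every TGF-b1 array, and total RNA overlapped. Tspan8 had -1.30 ± 0.13 (log2, SE) in newly made and -0.17 ± 0.13 in total RNA, which was not called (limma adjusted p = 0.827), and an interaction of -1.14 ± 0.18 (SE, limma adjusted p = 0.0171).

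The unnamed transcript 3110009F21Rik fell in both kinds of RNA. The transcript 3110009F21Rik read 7.54, 7.20 and 7.06 (log2) in newly made RNA of control cells and 4.86, 5.08 and 4.32 with TGF-b1, and in total RNA 6.65, 6.65 and 6.49 without and 5.83, 5.42 and 5.67 with TGF-b1. Its newly made TGF-b1 arrays lie low in a table whose lowest value is 2.34 (log2), and calls of presence or absence were not used. The fall was 5.70-fold in newly made and 1.94-fold in total RNA, and the interaction was -1.55 ± 0.25 (SE, limma adjusted p = 0.0235).

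Ctla2a encodes a small protein, like the propeptide of a cathepsin, that inhibits cysteine proteases. Ctla2a read 7.11, 7.38 and 7.02 (log2) in newly made RNA of control cells and 9.31, 9.30 and 9.09 with TGF-b1, and in total RNA 8.95, 8.40 and 8.79 without and 9.47, 9.56 and 9.31 with TGF-b1. In both kinds of RNA every TGF-b1 array was above every control array. The rise was 4.19-fold in newly made RNA and 1.66-fold in total RNA, 2.07 ± 0.15 and 0.73 ± 0.15 (log2, SE), and the interaction was 1.34 ± 0.21 (SE, limma adjusted p = 0.0171). Epb41l4b encodes a band 4.1 protein, whose FERM domain ties membranes to actin. Epb41l4b read 7.33, 7.19 and 7.13 (log2) in newly made RNA of control cells and 9.28, 9.31 and 9.35 with TGF-b1, and in total RNA 8.003, 7.89 and 7.82 without and 9.08, 9.04 and 8.86 with TGF-b1. It rose 4.28-fold in newly made and 2.13-fold in total RNA with no overlap between groups, and the interaction was 1.01 ± 0.15 (SE, limma adjusted p = 0.0171). Of the 12 genes 9 were lower in newly made than in total RNA of control cells, against 59.9% of all genes, and this rests on the same control arrays as the interaction.

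**Figure D2:**
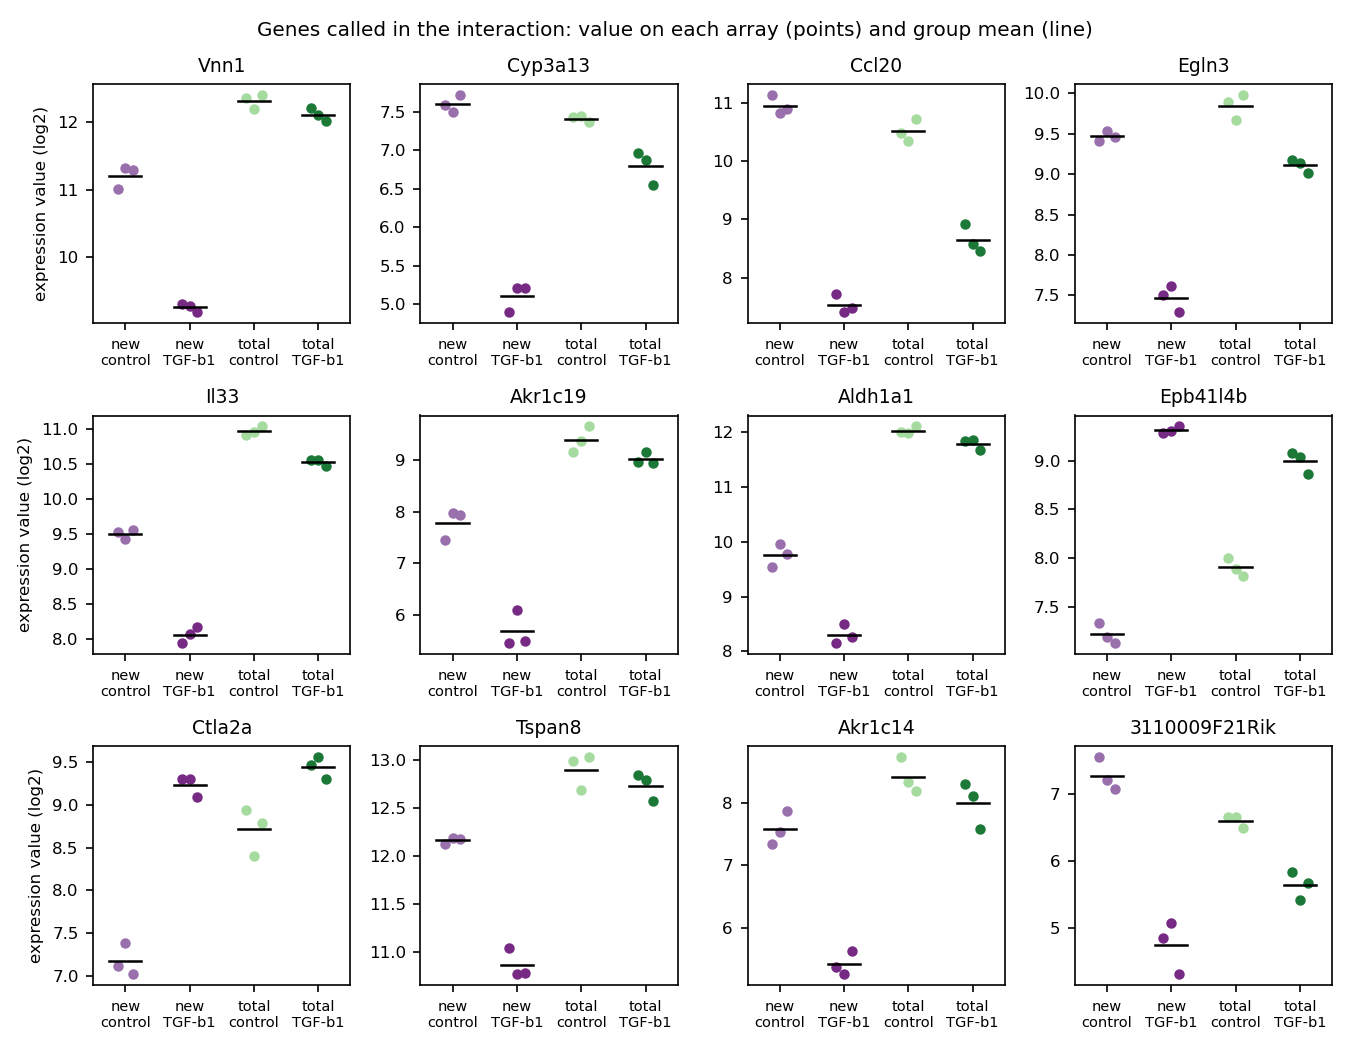
Expression value (log2) of the 12 genes called in the interaction on each of the 12 arrays (points, 3 per group) with the group mean (line); each panel has its own y axis. The distance between the control and TGF-b1 means is larger in newly made RNA than in total RNA in every panel, from 1.002 for Il33 to 1.88 for Cyp3a13.

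Taken by replicate number, the 3 TGF-b1 minus control differences in newly made RNA did not overlap the 3 in total RNA for any of the 12 genes, and this held for 11.8% of all genes. For Vnn1 they were -1.70, -2.06 and -2.12 (log2) in newly made and -0.15, -0.09 and -0.39 in total RNA. For Ccl20 they were -3.42, -3.44 and -3.43 against -1.56, -1.78 and -2.28. For Ctla2a they were 2.20, 1.93 and 2.08 against 0.52, 1.16 and 0.51. The 12 genes were picked for this difference on these same arrays, so the lack of overlap is no separate support for it.

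Each of the 12 interactions kept its sign when any 1 array was left out, but 8 of them lost the call in some cases. Vnn1, Cyp3a13, Ccl20 and Egln3 were called in all 12 such fits, with adjusted p up to 0.00247, 0.00247, 0.0368 and 0.0486. Il33, Akr1c14, Akr1c19, Aldh1a1, Ctla2a, Tspan8, Epb41l4b and 3110009F21Rik all lost the call when array 1 or array 2 of the total TGF-b1 group was dropped, and each lost it on dropping at least 2 more of the arrays, with adjusted p up to 0.108. In the newly made control group, dropping array 2 cost 6 genes their call and array 3 cost 7. In the total control group arrays 1 and 2 each cost 7 and array 3 cost 3. In the newly made TGF-b1 group array 2 cost 3 and array 3 cost 5, and in the total TGF-b1 group array 3 cost 3. Over all genes, dropping array 1, 2 or 3 of the newly made control group left 20, 6 or 5 calls, array 1 or 2 of the total control group 5, array 3 of the newly made TGF-b1 group 7, and array 1 or 2 of the total TGF-b1 group 4. Over the 12 such fits 0 to 7 calls were above 0 and 4 to 17 below. With number 1, 2 or 3 left out of every group the calls were 25, 0 and 1, and at an unadjusted p under 0.05 the genes were 597, 293 and 465. In each of these 3 fits all 12 genes kept their sign, with unadjusted p up to 0.000454, 0.00266 and 0.000848 (limma). The 12 genes were picked on these same arrays, so kept signs and small p here are no separate support.

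**Figure D3:**
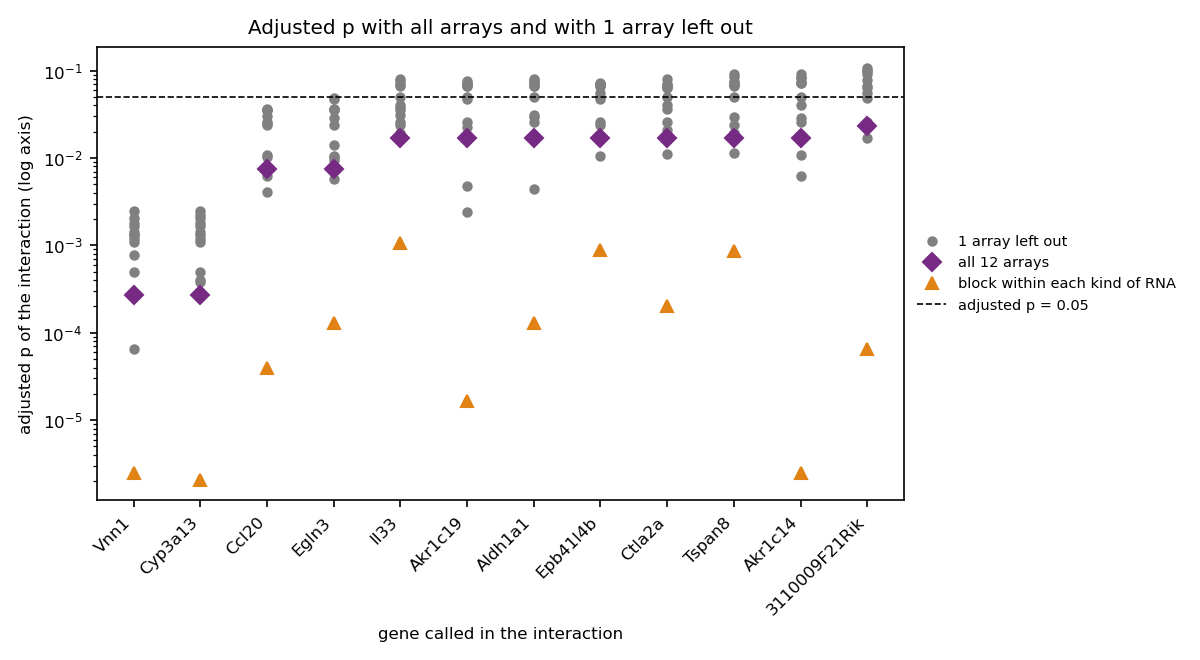
Adjusted p of the interaction (log axis) for the 12 called genes with all arrays (diamonds), with 1 of 12 arrays left out (circles) and with the replicate number as a block within each kind of RNA (triangles); the dashed line marks 0.05. For Vnn1, Cyp3a13, Ccl20 and Egln3 every circle lies under the line, and for the other 8 some lie above it, up to 0.108.

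Of the 12 genes 8 had a single probe set, and for the others the probe sets did not all read alike. The second Vnn1 probe set had an interaction of -1.79 (log2), close to the -1.75 of the first. Of the 4 other Tspan8 probe sets, 3 had -1.33, -1.34 and -0.67, and the remaining one, which had -2.05 in newly made and -1.70 in total RNA, had -0.35. The second Egln3 probe set had -1.18 in newly made and -0.87 in total RNA, an interaction of -0.31. The 2 dimmer Epb41l4b probe sets had -0.12 and 0.03. When all probe sets of a gene were averaged, Egln3 had -0.78 (limma adjusted p = 0.0988) and Epb41l4b 0.31 (adjusted p = 1), so those calls rest on their brightest probe set.

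The arrays also differed in RNA quality and in median value, mainly between the kinds of RNA, so that these differences go together with the kind of RNA. The Gapdh control probe sets, whose 3′ minus 5′ signal grows as RNA is shortened, gave 2.67 to 3.72 (log2) in newly made control, 2.68 to 3.39 in newly made TGF-b1, 1.63 to 1.94 in total control and 1.87 to 1.92 in total TGF-b1 RNA. Array 2 was the highest in both newly made groups, with 3.72 and 3.39. The gap between the kinds of RNA is shared by both conditions, and its part in the interaction was not tested. Array medians were at or above 5.93 (log2) in newly made and at or below 5.74 in total RNA.

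Beyond the 12, and with unnamed transcripts aside, the 10 lowest interactions with an unadjusted p under 0.01 were not called without the block. With the block within each kind of RNA all 10 were called. Cyp2c65, another cytochrome P450, had -1.67 in newly made and -0.26 in total RNA (log2), an interaction of -1.41 ± 0.31 (SE, limma adjusted p = 0.203, and 0.000565 with the block). Adh7, a retinol and alcohol dehydrogenase, had -1.52 and -0.30, an interaction of -1.22 ± 0.26 (SE, limma adjusted p = 0.165, and 0.000457 with the block), but only -0.21 on its second probe set. Ugt2b34, which joins glucuronic acid to steroids and drugs, had -1.77 and -0.52, an interaction of -1.24 ± 0.22 (SE, limma adjusted p = 0.061, and 9.09e-05 with the block). Sptssb, a small subunit of serine palmitoyltransferase, had an interaction of -1.19 ± 0.25 (SE, limma adjusted p = 0.165, and 0.00408 with the block), and -0.32 on its second probe set. In these 4 genes the total RNA change was not called without the block, and with it Ugt2b34 alone of the 4 was called there (limma adjusted p = 0.00257).

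The other 6 were of mixed function. Cavin2, a coat protein of caveolae, had -1.81 in newly made and -0.52 in total RNA (log2), an interaction of -1.29 ± 0.24 (SE, limma adjusted p = 0.0711, and 0.000107 with the block), and its other probe sets had -1.47 and -1.31. Cp, the copper ferroxidase ceruloplasmin, had -1.33 ± 0.36 (SE, limma adjusted p = 0.631, and 9.09e-05 with the block), and its 7 other probe sets ranged from -1.15 to -0.11. Selenop, which carries selenium, had -1.07 ± 0.20 (SE, limma adjusted p = 0.0855, and 0.00119 with the block). Klhl13, an adaptor of a Cul3 ubiquitin ligase, had -1.18 ± 0.27 (SE, limma adjusted p = 0.282, and 0.000129 with the block), and Mmp13, a collagenase, -1.16 ± 0.34 (SE, limma adjusted p = 0.903, and 0.00249 with the block). St8sia4, a polysialic acid transferase, was the one of the 10 that was also called in total RNA without the block, with -2.63 and -1.28, an interaction of -1.35 ± 0.39 (SE, limma adjusted p = 0.758, and 9.09e-05 with the block), and -0.02 on its second, dimmer probe set. With the block Cavin2 and Mmp13 were called in total RNA too (limma adjusted p = 0.00451 and 0.0158).

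The 10 highest interactions of this kind were likewise called only with the block. Fgf2 encodes a fibroblast growth factor. Fgf2 read 4.30, 4.24 and 3.91 (log2) in newly made RNA of control cells and 5.11, 6.23 and 5.90 with TGF-b1, and in total RNA 3.94, 4.00 and 4.20 without and 3.92, 4.0997 and 4.42 with TGF-b1. Newly made RNA with TGF-b1 stood above every other array, and total RNA overlapped, near the low end of the table. Fgf2 had 1.60 ± 0.22 in newly made and 0.10 ± 0.22 in total RNA (log2, SE), an interaction of 1.496 ± 0.31 (SE, limma adjusted p = 0.164, and 0.00111 with the block). Nudt6, which overlaps Fgf2 on chromosome 3 in RefSeq, had 1.64 and 0.54, an interaction of 1.11 ± 0.31 (SE, limma adjusted p = 0.709, and 0.00659 with the block), and -0.18 on its second probe set. Il6, an inflammatory cytokine, had 1.85 and 0.58, an interaction of 1.27 ± 0.37 (SE, limma adjusted p = 0.837, and 0.000107 with the block). Tnfaip6, a hyaluronan-binding protein of inflamed tissue, rose in both kinds of RNA, by 2.33 and 1.00, with an interaction of 1.33 ± 0.30 (SE, limma adjusted p = 0.23, and 0.0018 with the block).

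Lamb3, a chain of the basement membrane protein laminin-332, rose by 1.95 in newly made and 0.83 in total RNA (log2), both called, and its interaction was 1.12 ± 0.24 (SE, limma adjusted p = 0.165, and 0.00408 with the block). Pcolce2, an enhancer of procollagen processing, rose by 1.93 and 0.97, with 0.96 ± 0.19 (SE, limma adjusted p = 0.117, and 0.00196 with the block). Ltbp2, a latent TGF-b binding protein of elastic fibres, had 1.40 and 0.47, with 0.94 ± 0.25 (SE, limma adjusted p = 0.631, and 0.0112 with the block). Spire1, an actin nucleator, had 1.53 and 0.55, with 0.98 ± 0.24 (SE, limma adjusted p = 0.362, and 0.00361 with the block), and its 4 other probe sets ranged from 0.51 to 0.93. Atp2b4, a plasma membrane calcium pump, had 1.47 and 0.39, with 1.08 ± 0.29 (SE, limma adjusted p = 0.641, and 0.00517 with the block), and Btbd11 rose by 1.83 and 0.91, with 0.92 ± 0.25 (SE, limma adjusted p = 0.641, and 0.0122 with the block). Among these 10 genes Tnfaip6, Lamb3, Pcolce2 and Btbd11 were called in total RNA without the block, and with it Il6, Spire1, Nudt6 and Ltbp2 were called there too (limma adjusted p = 0.00143, 0.00385, 0.0209 and 0.0278).

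Of the 10 largest rises and 10 largest falls in newly made RNA among genes called in both kinds, unnamed transcripts aside, 13 had an interaction that was called neither with the block nor without it. The other 7 are Cyp3a13, Ccl20, Egln3, Ctla2a, Epb41l4b, St8sia4 and Tnfaip6, described above. Cxcl5, a chemokine for neutrophils, is an example of a fall. Cxcl5 read 11.70, 11.81 and 11.84 (log2) in newly made RNA of control cells and 8.74, 9.08 and 9.13 with TGF-b1, and in total RNA 11.38, 11.23 and 11.07 without and 8.50, 8.54 and 7.92 with TGF-b1. The groups were far apart in both kinds of RNA, with -2.80 and -2.90 (log2) and an interaction of 0.10 ± 0.23 (95% interval -0.38 to 0.59). Irs1, the adaptor that passes on insulin and IGF signals, had -1.97 and -2.37, an interaction of 0.40 (95% interval -0.04 to 0.85). The choline kinase gene Chka had -1.91 and -1.58, the RNA-binding ubiquitin ligase gene Trim71 -1.90 and -1.41, Exph5, a Rab27 effector, -1.81 and -1.48, and the secreted factor gene Ndnf -1.68 and -1.99, with interactions of -0.33, -0.48, -0.33 and 0.31. The other Chka probe sets had interactions of the opposite sign, 0.28 and 0.29. The second Trim71 probe set had -0.55 and the second, dimmer Ndnf probe set 0.21.

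Among the rises, Nfatc2, a calcineurin-dependent transcription factor, rose in both. Nfatc2 read 7.65, 7.73 and 7.62 (log2) in newly made RNA of control cells and 10.43, 10.86 and 10.41 with TGF-b1, and in total RNA 7.48, 7.45 and 7.29 without and 10.35, 10.41 and 10.01 with TGF-b1. Its changes were 2.89 and 2.85 (log2), an interaction of 0.05 (95% interval -0.37 to 0.47). Its 5 dimmer probe sets, however, had newly made changes of -0.18 to 0.53 and interactions of -0.48 to 0.31. Il11, a gp130 cytokine, had 2.53 and 2.41, an interaction of 0.12 (95% interval -0.69 to 0.93). Lce1f, a protein of the cornified envelope, had 2.95 and 3.49, an interaction of -0.54 (95% interval -1.09 to 0.01), and -0.13 on its second, dimmer probe set. Spsb1, a SOCS box adaptor, had 2.45 and 2.83, an interaction of -0.38 (95% interval -0.81 to 0.05). Its other probe sets had interactions from -0.06 to 0.62. Mab21l4 had 2.67 and 2.65, Olr1, a scavenger receptor for oxidised lipoprotein, 2.78 and 2.14, and the zinc finger factor gene Egr2 2.50 and 1.88, with interactions of 0.01, 0.64 and 0.61. On the brightest probe sets Trim71 and Olr1 had an unadjusted p of 0.036 and 0.0175 for the interaction (limma), and the other 11 genes were above 0.05. The intervals leave room for small differences, so the effects are not shown to be equal.

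**Figure D4:**
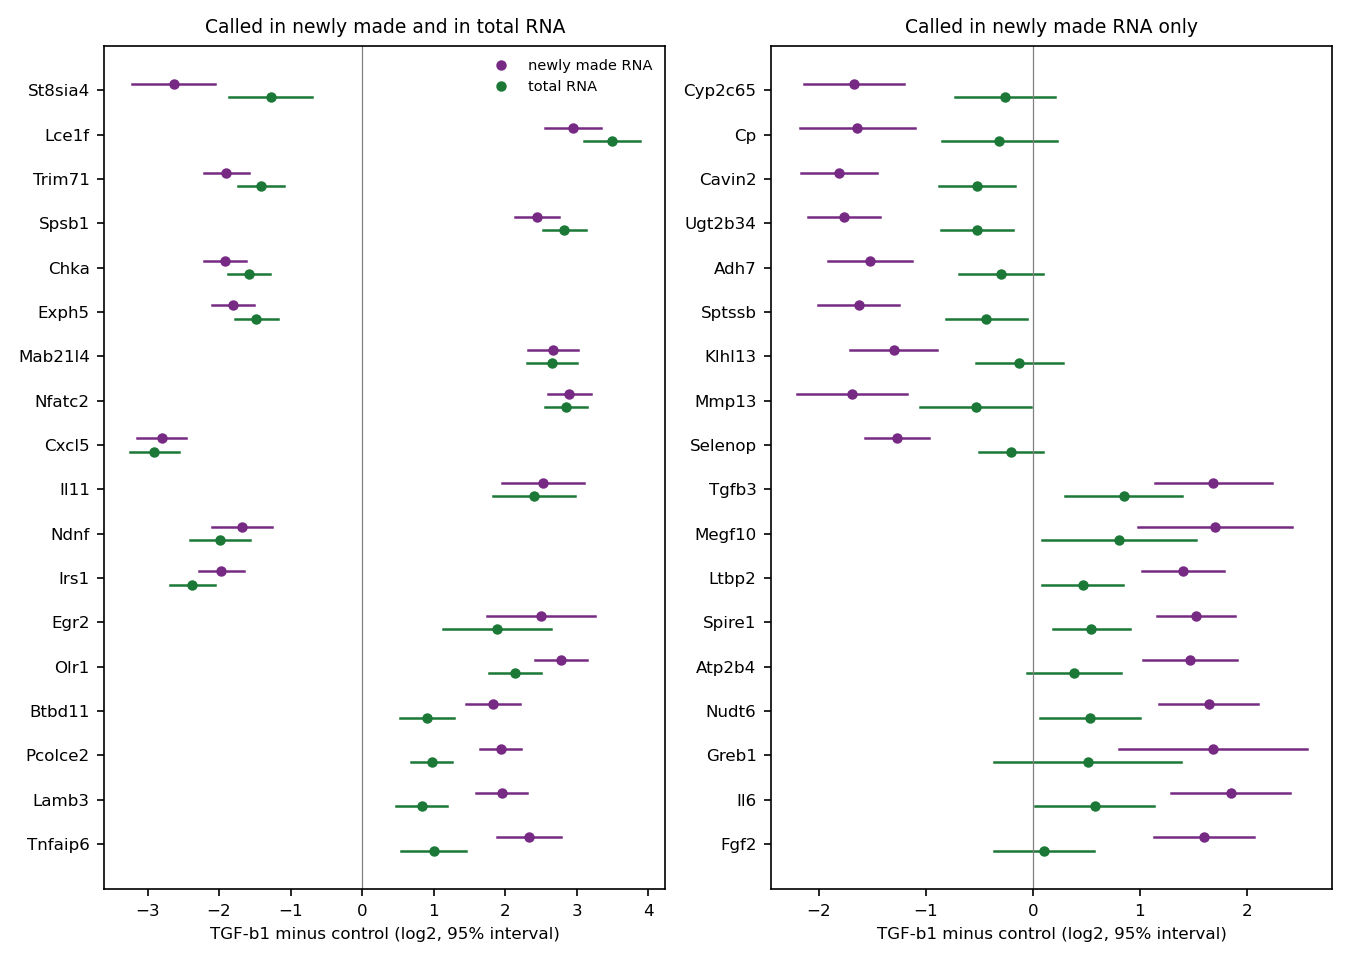
TGF-b1 minus control difference (log2, point, with its 95% interval, line) in newly made and in total RNA, for 18 named genes called in both kinds of RNA (left) and 18 called, without the block, in newly made RNA only (right), each panel ordered by the interaction; the 12 genes called in the interaction are left out. Points lie close together for Cxcl5, Nfatc2, Mab21l4 and Il11 and lie farthest apart for Fgf2 and Cyp2c65.

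Counted over all genes, TGF-b1 called 1116 genes in newly made RNA (609 higher and 507 lower) and 452 in total RNA (266 and 186), and with the block within each kind 2320 and 1025. Both kinds of RNA called 392 genes, 246 higher and 146 lower, which is 35.1% of the newly made calls and 86.7% of the total RNA calls, and 0 genes were called in opposite directions. With the block 848 genes were called in both. Dropping array 2 of the newly made TGF-b1 group left 405 rises in newly made RNA, and dropping array 2 of the newly made control group or array 3 of the newly made TGF-b1 group left 322 or 321 falls. Dropping array 1 of the total control group or array 3 of the total TGF-b1 group left 123 or 109 falls in total RNA, and the last left 92 falls called in both. Among the 392 the total RNA change divided by the newly made change had a median of 0.962 (lower quartile 0.782, upper quartile 1.135), and only 12 had a ratio under 0.5. Because both lists are cut at a threshold, this ratio describes the genes that passed in both.

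The calls in newly made RNA only numbered 724, 363 higher and 361 lower. With each array centred on its median they were 728, of which 444 were higher and 284 lower, and with the block within each kind of RNA 1472. Of the 724, 420 had a total RNA change under 0.5 times the newly made change, 362 passed an unadjusted p under 0.05 in total RNA in the same direction, 236 had an interaction with an unadjusted p under 0.05, 64 an interaction called with the block and 5 an interaction called without it. A missed call in total RNA is thus rarely a tested difference. Dropping array 2 of the newly made control group left 419, and array 3 of the newly made TGF-b1 group 434. The split moved with the arrays too: without array 1 of the newly made control group 303 were higher and 567 lower, and without array 2 of the newly made TGF-b1 group 193 and 290. Besides genes already named, and with unnamed transcripts aside, the largest rises in this class were in Megf10, Tgfb3 and Greb1. Megf10, a phagocytic receptor gene, had 1.70 and 0.81 (log2), and Tgfb3, a TGF-b ligand gene, 1.69 and 0.85. Greb1, an oestrogen-induced gene, had 1.68 and 0.52. Their interactions were 0.90 ± 0.48 (SE, limma adjusted p = 1), 0.84 ± 0.37 (SE, limma adjusted p = 1) and 1.17 ± 0.58 (SE, limma adjusted p = 1), and with the block the adjusted p was 0.00438, 0.13 and 0.000188. All 3 were called in total RNA with the block (limma adjusted p = 2.39e-05, 0.00106 and 0.00341).

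The opposite class, called in total RNA only, held 60 genes, 20 higher and 40 lower, 27 and 31 after quantile normalization of the arrays, and 9 and 31 with only genes above the median level tested. All 60 had a newly made change in the same direction, and 0 of them were called in the interaction by limma, 0 with the block and 4 at an unadjusted p under 0.05. The number was 177 with the block within each kind of RNA. Dropping array 1 or 3 of the newly made control group, or array 1 of the newly made TGF-b1 group, gave 106 or 107, and dropping any 1 of the 6 total RNA arrays gave 24 to 34, of which 1 to 12 were higher and 13 to 33 lower.

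The share of the newly made change that was seen in total RNA was smaller for falls than for rises, a difference that was not tested. It was read in the main scaling alone. With each array centred on its median, the newly made calls were 717 higher and 411 lower, in place of 609 and 507. Of the 160 genes called in newly made RNA with a rise of at least 2-fold, the total RNA change was a median 0.726 of the newly made change (log2 ratio), and it was under 0.5 for 33. Of the 90 genes with a fall of at least 2-fold the median was 0.504, and it was under 0.5 for 45. The reverse selection gave ratios closer to 1: of the genes called in total RNA with a change of at least 2-fold, 85 higher and 38 lower, all were called in newly made RNA, and the newly made change was a median 0.960 and 0.923 of the total RNA change. A gene picked for a large value in 1 kind of RNA tends to have a smaller one in the other.

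By role, the TGF-b signalling genes showed no called difference between the kinds of RNA. Only 0.066% of all genes had one, so 0 calls do not set a list of this size apart. Of 33 measured early TGF-b and SMAD targets, 16 were called higher in newly made RNA (3.35% of all genes were) and 15 in total RNA (1.46%), none lower, and 0 in the interaction (1 higher with the block and 2 higher at an unadjusted p under 0.05, beside 0.187% and 1.47% of all genes), whose median of 0.00 lay beside 0.01 over all genes. The inhibitory SMAD gene Smad7 had 0.99 in newly made and 1.25 in total RNA (log2), an interaction of -0.26 (95% interval -0.60 to 0.08). Skil, a SMAD corepressor gene, had 0.76 and 1.13, an interaction of -0.36 (95% interval -0.73 to 0.00), but 0.09 on its second, dimmer probe set. The TGF-b-inducible factor gene Klf10 had 0.63 and 0.75. Sphk1, a sphingosine kinase gene, had 1.61 and 1.67, but 0.84 and 0.36 on its second, dimmer probe set. The bHLH repressor gene Bhlhe40 had 1.51 and 1.68. The 2 list members with the smallest interaction p (limma) were Ltbp2 and Ltbp3. Ltbp3, a latent TGF-b binding protein gene, had 0.86 and 0.26 and an interaction of 0.61 ± 0.21 (SE, limma adjusted p = 1). Its other, dimmer probe sets had interactions from 0.37 to 0.80. Of 9 Id and BMP target genes 0 were called in the interaction (0.066% of all genes), and 0 had an unadjusted p under 0.05 (2.92% of all genes). The helix-loop-helix inhibitor Id3 had -1.37 and -1.49 (log2), Id2 -0.63 and -0.71, both called in both kinds of RNA, and Id1 -0.44 and -0.77, not called in either without the block and called in total RNA with it (limma adjusted p = 0.00582).

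Transcription factors and junction genes of the epithelial-mesenchymal transition gave 0 called differences. Only 0.066% of all genes were called, so 0 calls do not set these lists, or the mesenchymal and matrix lists below, apart. Among 18 measured transition factors 0 had an interaction with an unadjusted p under 0.05, which 2.92% of all genes had (1.47% higher and 1.45% lower). Foxq1, a forkhead factor gene named in the study's title, read 9.72, 9.28 and 8.86 (log2) in newly made control RNA and 10.64, 10.12 and 9.95 with TGF-b1, and 9.30, 8.73 and 8.33 and 10.15, 9.84 and 9.68 in total RNA. It rose in both, by 0.95 ± 0.25 and 1.10 ± 0.25 (log2, SE), with an interaction of -0.15 (95% interval -0.89 to 0.59). Snai1 had 0.50 in newly made and 0.73 in total RNA, of which the second was called without the block and both with it (limma adjusted p = 0.0262 in newly made RNA). Zeb1 had 0.60 and 0.45, neither called without the block and both with it (limma adjusted p = 0.000251 and 0.00783). Of 44 measured junction and polarity genes 0 were called in the interaction and 2 had an unadjusted p under 0.05, both lower (1.45% of all genes). The E-cadherin gene Cdh1 had -0.06 and -0.07. Krt19, an epithelial keratin gene, had -1.09 and -0.21 and an interaction of -0.87 ± 0.24 (SE, limma adjusted p = 0.682, and 0.0392 with the block), and Cldn2, a claudin gene, fell by 0.95 and 0.51. Of 29 mesenchymal and actin genes 0 were called and 2 had an unadjusted p under 0.05, both higher (1.47% of all genes). Itgb3, an integrin gene, was highest at 1.41 and 0.61. Its interaction was 0.80 ± 0.28 (SE, limma adjusted p = 1, and 0.0318 with the block), but 0.01 on its second, dimmer probe set. Vim had -0.28 and -0.13. Of 36 matrix genes 0 were called and 5 had an unadjusted p under 0.05 (2.92% of all genes), 3 higher and 2 lower. The collagen VII gene Col7a1 was up by 1.38 and 0.80. The fibronectin gene Fn1 had 0.34 and -0.03, but 0.55 and 0.58 on its second, dimmer probe set.

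The called differences were spread over the lists of enzymes, cytokines and gut-type genes. Of 44 measured retinoid, steroid and xenobiotic oxidoreductases 4 were called in the interaction, all lower (Cyp3a13, Akr1c14, Akr1c19 and Aldh1a1), and 7 lower with the block, where 0.055% and 0.286% of all genes were, and the list median was -0.05. In newly made RNA 9 of the 44 were called lower (2.79% of all genes were) and 0 higher, and in total RNA 1 was called lower (1.02%). Of 24 vanin, glutathione and conjugation enzymes Vnn1 was called lower (0.055% of all genes), 3 were called lower with the block (0.286%), and 8 were called lower in newly made (2.79%) and 1 in total RNA (1.02%), with a list median of -0.22. Mgst2, a microsomal glutathione transferase gene, had -1.06 and -0.22 (log2) and an interaction of -0.83 ± 0.18 (SE, limma adjusted p = 0.165, and 0.00897 with the block), and Ugt2b36 had -1.05 and -0.39. These lists were drawn up with earlier results of these arrays known, so their counts are no independent evidence.

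Over all genes 0.055% were called lower and 0.011% higher in the interaction, and 1.47% had a positive interaction with an unadjusted p under 0.05. Of 35 NF-kB-type chemokine and cytokine genes Ccl20 and Il33 were called lower and 4 others had an unadjusted p under 0.05 with a positive interaction, among them Il6 and Cxcl1. Cxcl1, a chemokine gene, fell by 1.30 in newly made and 1.74 in total RNA (log2), and its other probe sets had interactions of 0.515 and 0.04. Of 28 hypoxia targets Egln3 was called lower, and the glycolytic regulator gene Pfkfb4 had 1.23 and 0.50, an interaction of 0.73 ± 0.26 (SE, limma adjusted p = 1, and 0.0341 with the block). Of 30 gut-type epithelial genes Tspan8 was called lower, and Anxa13, an annexin gene, had -0.91 and -0.21, an interaction of -0.70 ± 0.20 (SE, limma adjusted p = 0.816, and 0.0478 with the block). Of 16 cathepsin and Ctla2 genes Ctla2a was called higher, and its neighbour Ctla2b rose by 1.68 and 1.14, an interaction of 0.55 ± 0.21 (SE, limma adjusted p = 1). Of 21 band 4.1 and FERM genes Epb41l4b was called higher, and 3 were called higher with the block (0.187% of all genes). Mylip had 1.30 and 0.51. The ezrin gene Ezr had -0.84 and -0.19, but -0.01 and 0.08 on its second, dimmer probe set.

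Lists of general cell processes gave 0 called genes (0.066% of all genes) and 0 with an unadjusted p under 0.05 (2.92%): 29 immediate-early genes, 23 mRNA decay factors, 28 cell cycle genes, 18 p53 targets, 14 cholesterol synthesis genes, 24 oxidative phosphorylation genes and 19 ribosomal protein genes. With so few calls over all genes, 0 calls do not set any of these lists apart. Their median interactions lay between -0.02 and 0.12. The AP-1 gene Junb had 0.82 in newly made and 0.78 in total RNA (log2), neither called without the block and both with it (limma adjusted p = 6.28e-06 and 2.63e-05), and Fosl2 rose by 0.68 and 0.97.

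**Figure D5:**
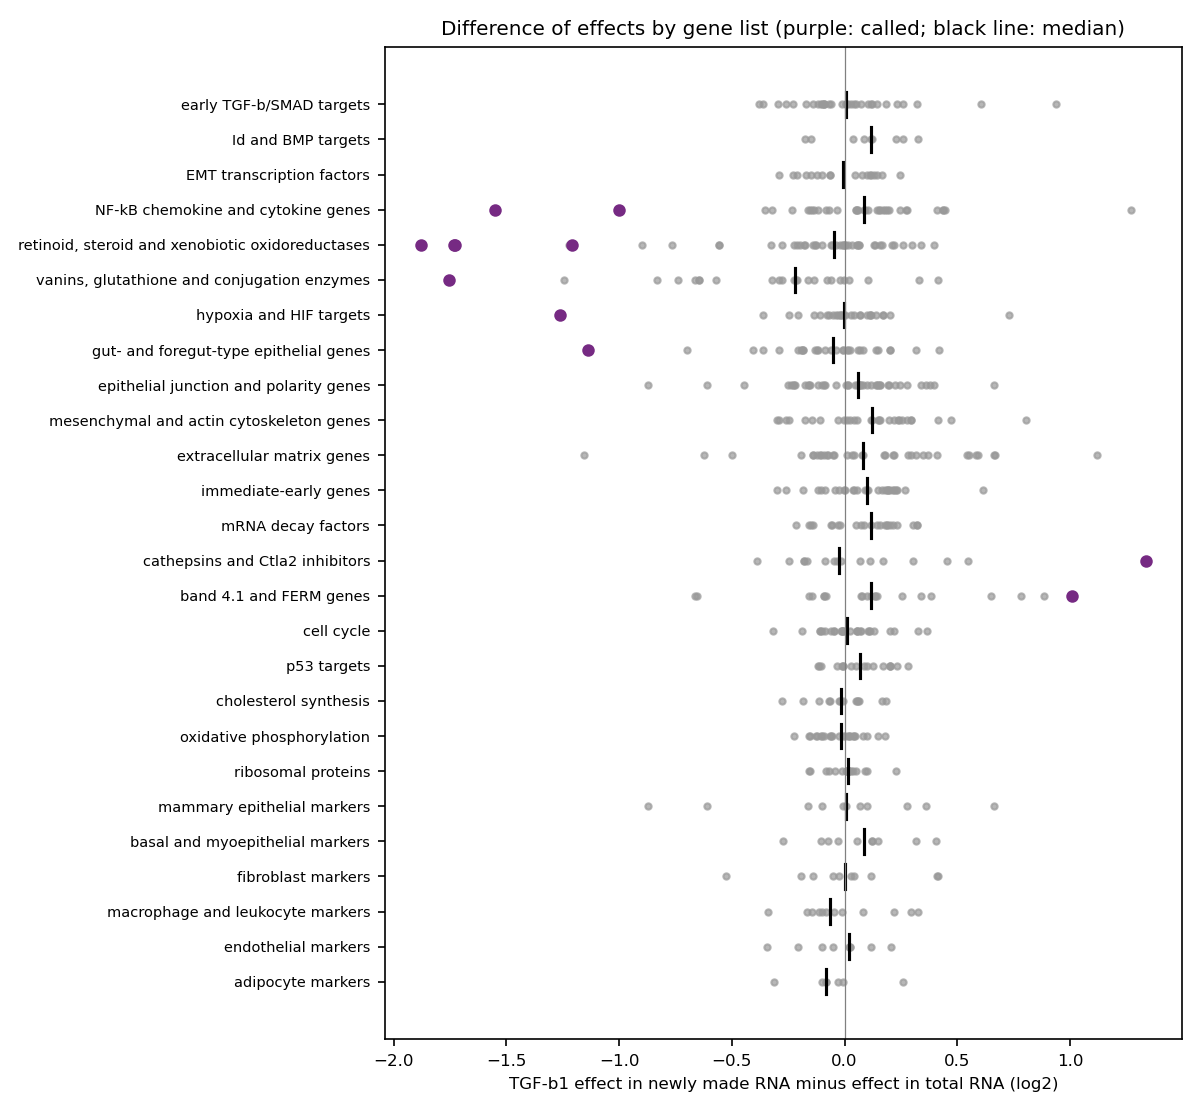
Interaction (log2, TGF-b1 effect in newly made minus that in total RNA) of each measured member of 26 gene lists (points), with called genes as large points and the list median as a black line. Called genes lie far to the left in the enzyme, cytokine, hypoxia and gut-type lists, from -1.88 for Cyp3a13 to -1.002 for Il33, and to the right for Ctla2a and Epb41l4b, and the list medians stay between -0.22 and 0.12.

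Markers of the labelled cell type and of others were read in total RNA of control cells, in a table whose values span 2.34 to 14.8 (log2). The means of the 11 measured mammary epithelial markers ran from 4.58 for Esr1 to 14.1 for Krt8, with Krt18 at 13.3, Cdh1 at 11.6, Cldn4 at 5.43, Cldn7 at 5.09 and Elf5 at 4.91. Those of 10 basal markers ran from 4.57 (Krt17) to 10.3 (Itga6), and of 10 fibroblast markers from 3.62 (Fap) to 6.77 (Pdgfrb). Those of 12 macrophage and leukocyte markers ran from 4.04 for Ptprc, their defining gene, to 11.6 for Cd14, with Laptm5 at 9.79. The 9 endothelial markers ran from 3.79 (Tek) to 6.12 (Kdr), with Pecam1 at 4.84, and the 7 adipocyte markers from 3.62 (Adipoq) to 8.90 (Pparg). Calls of presence were not used, and levels of different probe sets were not compared. Of the 11 measured mammary epithelial markers 0 were called in the interaction (0.066% of all genes). So were 0 of 10 basal, 10 fibroblast, 12 macrophage and leukocyte, 9 endothelial and 7 adipocyte markers. At an unadjusted p under 0.05 (2.92% of all genes) there was 1 mammary, 1 basal and 1 fibroblast marker. Counted over these 6 lists, only Krt19 was called with the block (0.473% of all genes). Counts this small do not set the marker lists apart from all genes.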

How the data were processed

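RNA was extracted from NMuMG cultures seeded 24 h before treatment, 4sU-labelled RNA was enriched by mercury-based chromatography, and total and enriched RNA were both amplified over a pair of cycles before Affymetrix hybridisation, per the labels' protocols. The authors deposited 1 log2 expression value per probe set and array. That the scale is log2 was read from the span of the values (2.34 to 14.8), and fold changes rest on it. The submitters' processing notes list affy 1.18.2 but not what it did, and the background correction and array scaling are not given in the sources used here. If each array was scaled to the others, the values show relative levels within a kind of RNA, not amounts per cell.

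Probe sets with 1 gene symbol in the platform annotation were kept (34945 of 45101; 932 had several symbols, 9160 none and 64 were controls), symbols were checked through Entrez identifiers for 34741, and a gene was represented by its brightest probe set on average. A single model (limma 3.58.1, R 4.3.3; lmFit, eBayes, two-sided) was fitted over 4 groups of 3 arrays, with Benjamini-Hochberg adjustment over 18193 genes and calls at 0.05. The code was tested on simulated data with known changes. Precision is limited by having 3 arrays in a group, and p-values measure the spread between replicates that the series describes as biological.

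Replicate numbers were checked by the correlation across genes of deviations from the group means: within newly made RNA same-numbered control and TGF-b1 arrays gave 0.338 to 0.732, within total RNA 0.122 to 0.407, and across the kinds of RNA -0.18 to 0.315. Arrays with different numbers gave -0.58 to 0.347 within newly made RNA, which overlaps the same-number range, and -0.26 to 0.00 within total RNA. Every same-number correlation within a kind of RNA was over 0.1, but so were some different-number ones within newly made RNA (0.347 and 0.122). The pairing is therefore not settled by these values. The fit with the number as a block within each kind is given beside the main one, not in its place. Genes were named by rule: all called in the interaction, the 10 highest and 10 lowest of those not called with an unadjusted p under 0.01, the 10 largest rises and falls called in both kinds of RNA, the 5 largest called in newly made RNA only, the members of each of 26 lists with the smallest p, and a fixed set of 15. Unnamed transcripts were passed over among genes not called, called in both kinds and called in newly made RNA only. The genes and lists were chosen with earlier results of these data known. Alternatives were the blocks, 2 other scalings, a filter on low values, 2 treatments of probe sets, another variance model and leaving arrays out. Scanner files and the arrays of the other cell line were not used here.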

Additional observations from a re-analysis of the deposited data

Results flagged for a closer look

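The 12 genes below stand here because the test of the difference between the TGF-b1 effects in newly made and in total RNA passed its threshold (limma, adjusted over 18193 genes). The interaction (log2, newly made minus total) was -1.88 for Cyp3a13, -1.75 for Vnn1, -1.73 for Akr1c14, -1.73 for Akr1c19, -1.55 for Ccl20, -1.55 for 3110009F21Rik, -1.26 for Egln3, -1.21 for Aldh1a1, -1.14 for Tspan8 and -1.002 for Il33. It was 1.34 for Ctla2a and 1.01 for Epb41l4b. Each change was the larger one in newly made RNA, and the call held in every fit with 1 array left out only for Vnn1, Cyp3a13, Ccl20 and Egln3.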

How the results depend on the processing

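The interactions of the 110 named genes were recomputed under 23 alternatives, which gave 2505 values, since 25 values of dim genes could not be had under the filter on low values. Of these, 84 lost and 79 gained the call and 2342 stayed on the same side of the threshold. The sign changed for 64 values of 24 genes, and 0 of these were called in either fit. The replicate block over all groups gave 39 interaction calls, 701 calls in total RNA, 604 in both kinds and 97 in total RNA only. The replicate block within each kind of RNA gave 86 interaction calls, 2320 in newly made RNA, 1025 in total RNA, 848 in both, 1472 in newly made only and 177 in total only, and the blocks took spread between numbers out of the error. Quantile normalization gave 21 interaction calls (2 higher, 19 lower), a change whose cause was not tested. Median centring, trend and robust variance, either treatment of probe sets and the filter on low values kept every total count within 1.5 times, although the filter took the higher calls in total RNA only from 20 to 9, with fewer genes tested. With arrays left out, alone or by number, interaction calls ran from 0 to 25, newly made calls from 334 to 1288, total RNA calls from 121 to 524, calls in both from 104 to 418, in newly made only from 230 to 870 and in total only from 17 to 107. The lowest counts came without number 2, with 8 arrays in the fit. Signal near the bottom of the range limits 3110009F21Rik and Fgf2, and other genes too. Tnfaip6 read 4.03 to 4.09 (log2) in newly made control RNA and Sptssb 4.22 to 4.49 in newly made TGF-b1 RNA. Il6 read 4.29 to 4.47 and Atp2b4 4.14 to 4.89 in total control RNA. Cyp3a13 read 4.89 to 5.21 in newly made TGF-b1 RNA.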
